A study of Mus musculus with 6 samples.

Results

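Tuft cells are rare chemosensory cells of the intestinal epithelium, and 10 genes known as their markers were followed here across control and Musashi-transgenic mouse jejunum: Dclk1, Trpm5, Pou2f3, Gfi1b, Il25, Avil, Ptgs1, Sh2d6, Plcg2 and Il17rb. They were chosen by name. For each gene the array row annotated with that symbol alone was used, and of several such rows the one with the highest mean over the 6 arrays would have been kept. Of the 10 genes 9 had exactly 1 such row, among 19938 named genes tested. Ptgs1, which encodes cyclooxygenase 1, was matched to no row by symbol and was not analysed here.

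Tuft cells sense luminal metabolites through a taste-like cascade, in which G proteins and phospholipases release calcium and open the channel Trpm5. The transcription factor Pou2f3 is required for the lineage. In the small intestine tuft cells are the main source of the cytokine IL-25, which acts on group 2 innate lymphoid cells through a receptor that contains Il17rb, and those cells release IL-13, which increases tuft and goblet cell numbers. Tuft cells also make leukotrienes, prostaglandins and acetylcholine.

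RNA came from preparations of all epithelial cells of the jejunum, hybridised to Affymetrix mouse gene arrays at 250 ng per array. Of the animals, 3 were controls with R26-M2rtTA, a doxycycline-dependent activator expressed from the Rosa26 locus. The other 3 also carried a TRE transgene, which that activator switches on. All 6 had doxycycline in the drinking water for 24 h, so every control carried the activator and received the drug too. The sources used here give no strain, age or sex. The transgene is called Msi1 in the series text but MSI2 in the genotype labels. Mean log2 signal of Msi1 was 6.94 ± 0.09 (SD, n = 3) in controls and 12.60 ± 0.09 (SD, n = 3) with the transgene, against 8.64 ± 0.06 and 8.22 ± 0.30 for Msi2. It was therefore Msi1 whose signal was raised on the arrays labelled transgenic.

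All values are log2 signals, so a difference of 1 unit is a 2-fold difference in signal, and a gene passed when its adjusted p in limma, a moderated linear model fitted over all genes, was under 0.05. Transgenic replicate 1 stood apart: its correlation across genes with the other transgenic arrays was 0.947 to 0.951, against 0.995 to 0.996 among controls. Relative to the control mean, enterocyte markers had a median of -2.49 on that array and of -0.16 and -0.20 on transgenic replicates 2 and 3. Paneth cell markers had 0.93 on that array and -1.09 and -1.14 on the others. Results are therefore also given without it where that changes them. The table holds no detection calls, so whether a low signal lay above background was not tested. In RNA from a mixed preparation, fewer tuft cells and less of an mRNA per tuft cell cannot be told apart.

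The tuft cell markers did not separate the groups. Of the 9 measured markers 0 passed, against 11.9% of all genes (5.84% lower and 6.04% higher in the transgenic arrays), and 1 had an unadjusted limma p under 0.05, against 25% of all genes. The groups overlapped for each of the 9, while 34.2% of all genes had groups that did not overlap. All 9 differences, transgenic minus control, lay below 0, from -0.70 to -0.14 with a median of -0.27. Over all genes the median was -0.04, and 58.5% of differences were below 0. These differences share the same 6 arrays and are not independent of each other. Without control replicate 2 only 5 of the 9 differences were below 0 and their median was -0.05, so the common sign rested on that array. Without control replicate 3 the median was -0.64 and again 0 passed, with the smallest limma adjusted p at 0.0726 (Il17rb). In that setting 463 of 19938 genes passed as lower and 416 as higher.

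Dclk1, a microtubule-associated kinase and the most used tuft cell marker, had 8.10, 8.82 and 7.13 on control replicates 1, 2 and 3. On transgenic replicates 1, 2 and 3 it had 8.15, 7.47 and 7.40. All 3 transgenic values lay between the lowest and the highest control. The difference was -0.34 (SE 0.445, 95% interval -1.42 to 0.74, limma adjusted p = 0.726), an interval that spans both directions.

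Trpm5, the cation channel at the end of the taste-like cascade, had 7.92, 8.49 and 6.90 on the controls and 7.61, 7.45 and 7.43 on the transgenic arrays. The transgenic arrays lay close together, in the middle of a wide control group. The difference was -0.27 (SE 0.383, 95% interval -1.21 to 0.66, limma adjusted p = 0.744). Avil encodes advillin, an actin-bundling protein of the tuft cell's apical rootlets. It had 7.46, 8.08 and 6.74 on the controls and 7.65, 7.12 and 7.10 on the transgenic arrays, again within the control range, with a difference of -0.14 (95% interval -0.99 to 0.72).

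Sh2d6, a gene with an SH2 domain, had the strongest spread of the 9. Its signal was 8.84, 9.57 and 7.76 on the controls and 7.64, 8.12 and 8.30 on the transgenic arrays. Transgenic replicate 1 was the lowest of the 6 arrays and control replicate 3 the next. The difference was -0.70 (SE 0.458, 95% interval -1.81 to 0.41, limma adjusted p = 0.433).

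Plcg2, a phospholipase C of receptor signalling that is also present in B cells, came closest to the threshold. It had 8.35, 8.53 and 7.98 on the controls and 8.07, 7.45 and 7.32 on the transgenic arrays. Transgenic replicates 2 and 3 lay below every control, while transgenic replicate 1 lay above control replicate 3. The difference was -0.68 (SE 0.238, 95% interval -1.25 to -0.10, unadjusted p = 0.0289, limma adjusted p = 0.139). Without transgenic replicate 1 Plcg2 passed as lower, at -0.90 (SE 0.152, limma adjusted p = 0.00252), where 14.5% of all genes passed as lower. It was then the only one of the 9 to pass. With array weights, which gave transgenic replicate 1 less influence, it also passed alone, at -0.84 (limma adjusted p = 0.00424), against 14.7% of all genes passing as lower. Another setting took only the 4 arrays whose descriptions share a number and used that number as a block. It gave every gene the same SE, 0.176, and passed Plcg2 (-0.87), Dclk1 (-0.54) and Sh2d6 (-0.45) as lower, against 9.85% of all genes. The B and plasma cell markers fixed beside it had a median difference of -0.06, and 0 of 8 passed with all 6 arrays weighted equally. Of these 8, 1 passed as lower with array weights, 1 with the block on 4 arrays and 0 without transgenic replicate 1. Jchain, of plasma cells, had -0.83 (limma adjusted p = 0.131). Their part in the Plcg2 result was not tested.

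The lineage regulator Pou2f3 had 7.01, 7.34 and 6.38 on the controls and 6.76, 6.56 and 6.87 on the transgenic arrays, all within the control range. Its difference was -0.18 (95% interval -0.78 to 0.42, limma adjusted p = 0.739). Gfi1b, a zinc-finger repressor found in tuft cells and in the erythroid and megakaryocyte lineages, had 7.17, 7.42 and 7.01 on the controls and 7.04, 6.96 and 7.13 on the transgenic arrays, a difference of -0.16 (95% interval -0.46 to 0.15). Neither regulator differed beyond the spread between arrays.

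Il25, the cytokine of tuft cells, had 6.11, 6.39 and 6.39 on the controls and 6.04, 6.07 and 6.34 on the transgenic arrays. The difference was -0.14 (SE 0.127, 95% interval -0.45 to 0.17, limma adjusted p = 0.577). Its range over all 6 arrays was narrow, and it is the 1 marker that control replicate 3 did not hold at the lowest control value. Its mean signal was the lowest of the 9, at 6.30 in controls and 6.15 with the transgene. The median of all rows ran from 6.27 to 6.34 over the 6 arrays. Whether the Il25 signal lay above background was not tested. Il17rb, the IL-25 receptor subunit, had 7.16, 7.42 and 6.58 on the controls and 6.52, 6.74 and 6.69 on the transgenic arrays. Only transgenic replicate 1 lay below the lowest control, and the difference was -0.40 (SE 0.22, 95% interval -0.94 to 0.13, limma adjusted p = 0.339). By exact permutation of the array labels (two-sided), whose smallest possible p here is 0.1, the 9 markers had p from 0.2 to 0.8.

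**Figure D1:**
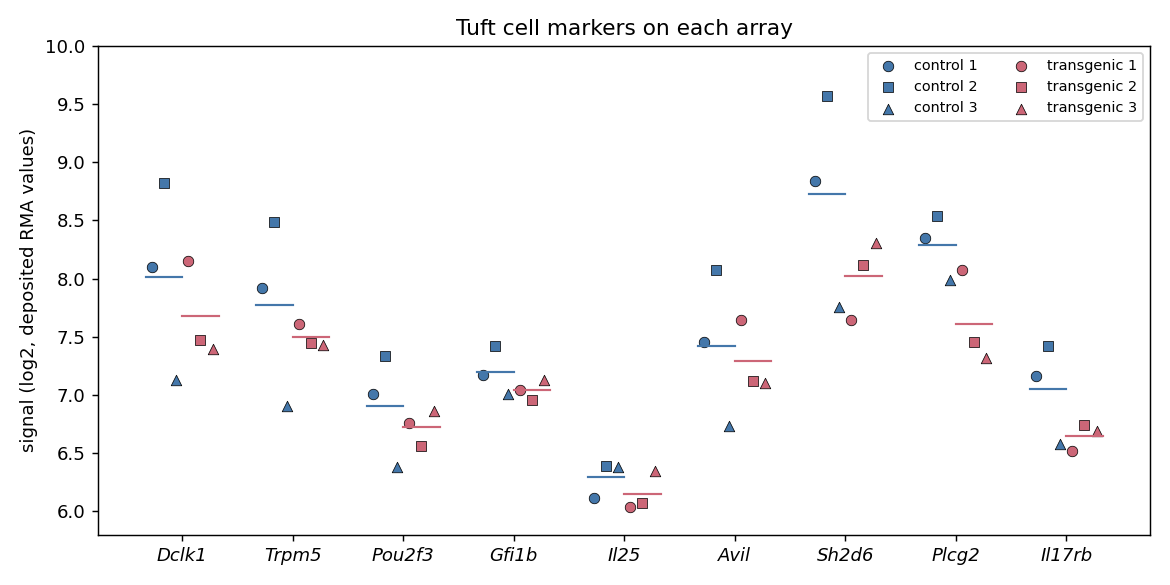
Log2 signal of the 9 measured tuft cell markers on each of the 6 arrays, with marker shape giving the replicate number and horizontal lines the group means. Control replicate 2 is the highest control for each gene and control replicate 3 the lowest for all but Il25, and for Plcg2 transgenic replicates 2 and 3 lie well below the lowest control of 7.98.

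**Figure D2:**
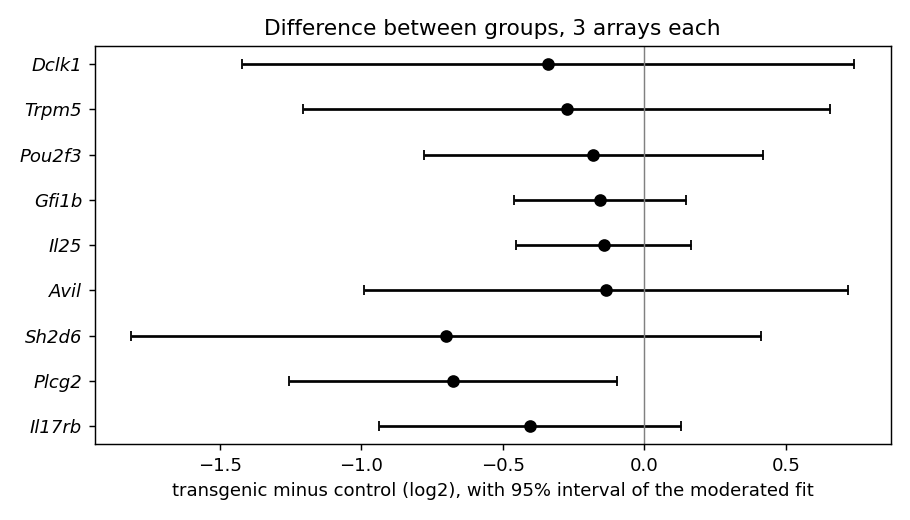
Difference between groups for each marker, transgenic minus control in log2 units, with the 95% interval of the moderated fit (3 arrays per group). All 9 points lie below 0, and the interval of Plcg2 alone, -1.25 to -0.10, leaves out 0.

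Most of these genes differed widely between control animals. Control replicate 2 was the highest control for 9 of 9 markers, and control replicate 3 the lowest for 8 of 9; over all genes 27.8% had control replicate 2 highest and control replicate 3 lowest. Between those arrays Sh2d6 differed by 1.81, Dclk1 by 1.69, Trpm5 by 1.58 and Avil by 1.34, which are 3.51-, 3.23-, 3.00- and 2.53-fold. Pou2f3 differed by 0.95, Il17rb by 0.85, Plcg2 by 0.55, Gfi1b by 0.41 and Il25 by 0.00504. A range over the controls of at least 0.5 was found for 7 of 9 markers and for 3.28% of all genes. Only 0.13% of genes had a control range as wide as that of Sh2d6, and 0.155% as wide as that of Dclk1. The markers' median control range was 0.95, against 0.17 over all genes. Among the transgenic arrays it was 0.31, and the control SD exceeded the transgenic SD for 7 of 9 markers, against 23% of all genes. This pattern was noticed in the same values, and 1 array against 1 array allows no test.

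**Figure D3:**
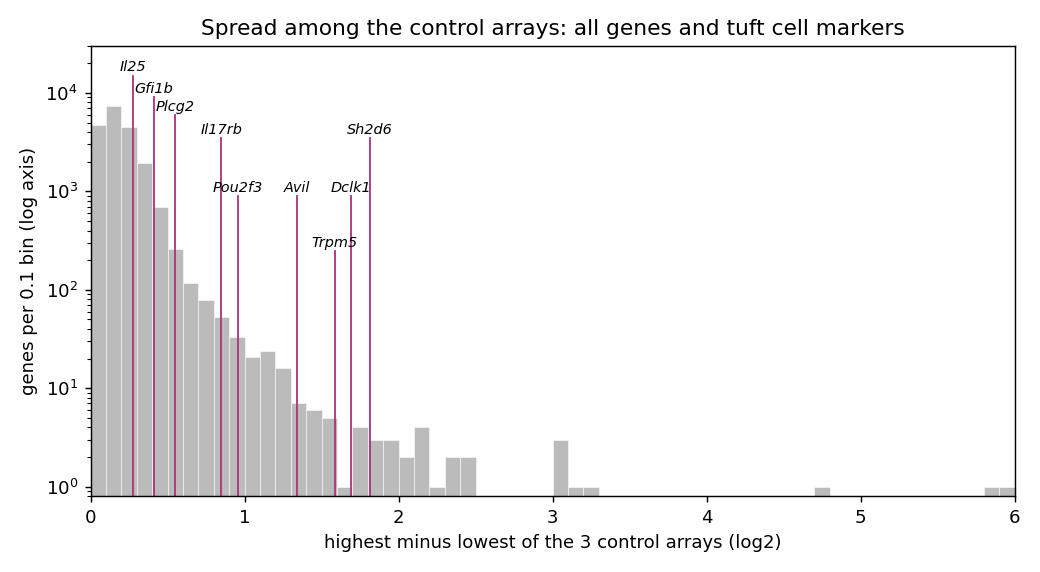
Highest minus lowest of the 3 control arrays, in log2 units, for all 19938 genes (grey bars, genes per bin on a log axis), with a line for each tuft cell marker. Most genes lie near the median of 0.17, while Sh2d6, Dclk1, Trpm5 and Avil lie between 1.34 and 1.81.

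Other genes of tuft cells were then examined in 5 lists of 53 further genes, 51 of them measured. Of these 51, 2 passed as lower, Coro1a and Ascl2, and 1 as higher, Runx1, and 43 had a difference below 0. Over all genes 5.84% passed as lower, 6.04% as higher and 58.5% had a difference below 0, so the count that passed was no larger a share than over all genes. The spread among the controls was shared with many of them. Control replicate 2 exceeded control replicate 3 by at least 1 unit for 61 of 19938 genes, or 0.306%. Of those 61 genes 16 were in the tuft cell lists (26.2%), namely 4 of the 9 markers and 12 of the 51 other genes, and these 16 made up 26.7% of the 60 tuft cell genes measured. In the opposite direction 14 genes differed by at least 1 unit, and 0 of them were in these lists. The lists were chosen with earlier results of these data known, so these shares are a description and not a test.

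The taste-like signalling list holds G protein subunits, phospholipase, calcium channels and receptors. Of its 12 genes 0 passed, and the median difference was -0.21. The smallest p belonged to Plcb2, the phospholipase of the taste cascade, at -0.80 (SE 0.218, limma adjusted p = 0.0709). The inositol trisphosphate receptors Itpr3 and Itpr2 had -0.47 and -0.95, and the sweet and umami receptor subunit Tas1r3 had -0.36, with adjusted p from 0.0773 to 0.123. Without transgenic replicate 1, 4 genes of the list passed as lower, against 14.5% of all genes in that setting. Gnat3, the alpha subunit gustducin, lay on the other side of 0: it had 5.61, 5.68 and 4.31 on the controls and 4.93, 6.83 and 6.04 with the transgene. Its difference, 0.73, did not pass. Rgs13, a regulator of G protein signalling, had 9.27, 9.78 and 8.01 on the controls and 8.77, 8.88 and 8.57 on the transgenic arrays. Its controls lay in the same order as those of Trpm5, and its transgenic arrays again lay inside their range. The succinate receptor Sucnr1 had 6.11, 6.85 and 5.26 on the controls and 4.79, 5.62 and 5.41 on the transgenic arrays. Only transgenic replicate 1 lay below the lowest control.

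Genes for leukotriene, prostaglandin and acetylcholine synthesis gave 0 of 7 passing and a median of -0.29. Alox5, which starts leukotriene synthesis, had 7.74, 8.61 and 6.57 on the controls and 7.18, 7.03 and 7.07 on the transgenic arrays. Between control replicates 2 and 3 it differed by 2.03, the widest gap of all 60 tuft cell genes. Its partner Alox5ap had 7.76, 8.42 and 6.60 on the controls and 7.03, 6.78 and 6.77 on the transgenic arrays. Ltc4s, which makes leukotriene C4, differed by -0.54 between the groups (limma adjusted p = 0.0733), and Chat, the acetylcholine-making enzyme, by -0.15. Without transgenic replicate 1, 2 of the 7 passed as lower, against 14.5% of all genes.

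Of 17 measured genes that tuft cells share with blood cells, such as adaptors, kinases and surface receptors, 1 passed. This was Coro1a, an actin-binding protein of leukocytes, at -0.71 (SE 0.147, limma adjusted p = 0.0309). Leaving out any control, or transgenic replicate 2, ended the call (limma adjusted p up to 0.133). Without transgenic replicate 1, 4 of the 17 passed as lower, against 14.5% of all genes. Lrmp (-0.57, adjusted p = 0.0659), Rac2 (-0.91, 0.12) and Inpp5d (-0.59, 0.158) had the next smallest p in the same fit. Coro1a did not follow the tuft cell markers among the controls, where control replicate 2 exceeded control replicate 3 by 0.11. By contrast the kinase Bmx differed between those arrays by 1.70 and the surface lectin Siglecf by 1.52, with group differences of -0.45 and -0.29 that did not pass. Leukocytes express many genes of this list. The T cell markers, 0 of 6 of which passed, had a median difference of -0.70, with array medians relative to the control mean of -1.503, -0.42 and -0.21 on transgenic replicates 1, 2 and 3. Their part in the Coro1a result was not tested.

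Of 8 transcription factors that tuft cells share with other lineages 1 rose and 1 fell. Runx1, a factor also of blood lineages, rose by 1.34 (SE 0.125, limma adjusted p = 0.00318), with 7.19 ± 0.20 in controls and 8.53 ± 0.09 with the transgene (SD, n = 3 each), and all 3 transgenic arrays lay above every control. It passed with each array left out in turn. Ascl2, a factor of intestinal stem cells, fell by 1.03 (SE 0.164, limma adjusted p = 0.0142), and lost the call without control replicate 2 or 3 (adjusted p up to 0.0733). Gfi1 had -0.31 and Hmx2 -0.23, and neither passed. Spib, an Ets factor, had 7.64, 8.16 and 6.76 on the controls and 7.57, 7.21 and 7.19 on the transgenic arrays, the same control order as Dclk1. The median of the 8 factors was -0.19. Without transgenic replicate 1, 2 of the 8 passed as lower and 1 as higher, against 14.5% and 14% of all genes. In the cytoskeleton list, which holds genes also abundant in enterocytes such as Vil1, 0 of 7 passed, with Nrep at -0.32 and Vil1 at -0.62, and a median of -0.26. Without transgenic replicate 1, 4 of these 7 passed as lower, against 14.5% of all genes.

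**Figure D4:**
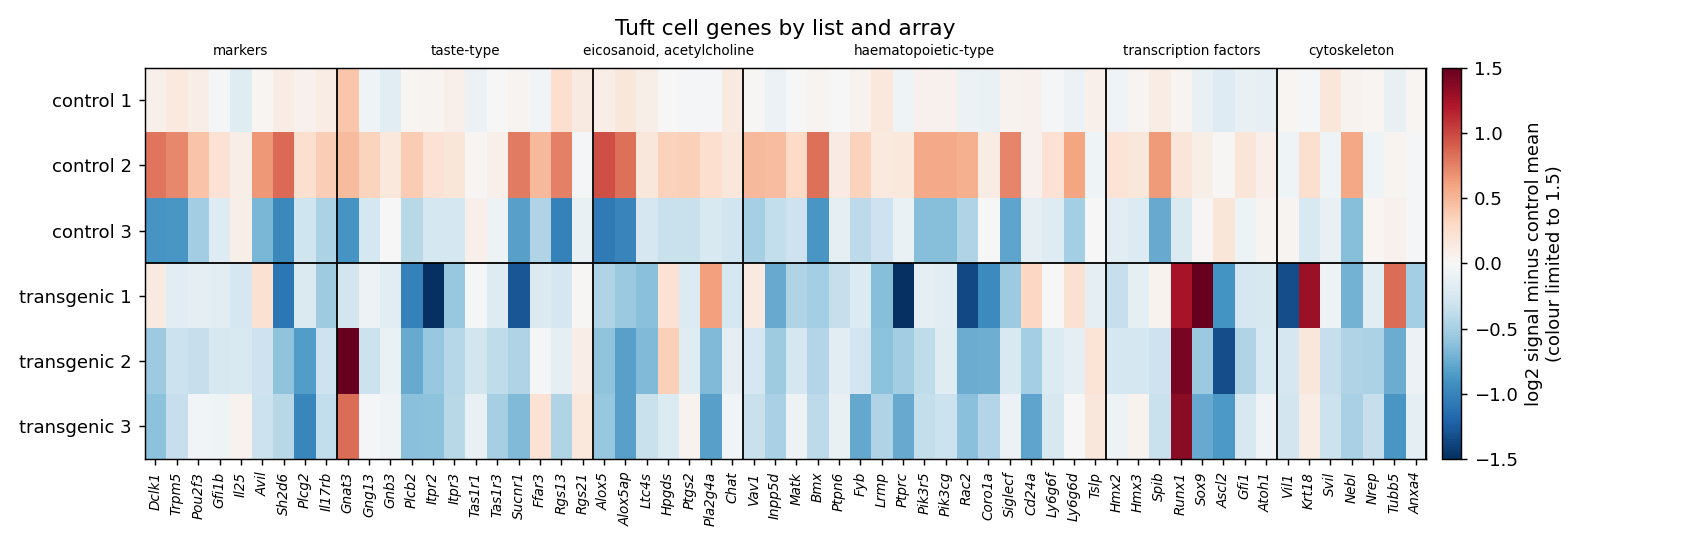
Log2 signal minus the control mean for the 60 measured tuft cell genes, in columns by list, on the 6 arrays in rows; colour is limited to 1.5 units either way. Control replicate 2 is above and control replicate 3 below the control mean for most markers and for most taste-like, eicosanoid and haematopoietic-type genes, and Runx1 is above it on all 3 transgenic arrays.

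The circuit around IL-25 was examined through a list of cytokine receptors, Stat6, epithelial targets and the alarmin Il33. Of 7 genes 2 rose. Il4ra, the receptor chain for IL-4 and IL-13, rose by 1.05 (SE 0.143, limma adjusted p = 0.00873), with 9.60 ± 0.18 in controls and 10.65 ± 0.20 with the transgene (SD, n = 3 each), and the alarmin Il33 rose by 1.24 (SE 0.164, limma adjusted p = 0.00784). Both lost the call without control replicate 1, with adjusted p of 0.0548 and 0.0502. Over all genes 6.04% passed as higher. Il13ra1 (0.31) and Il17ra (0.30) did not pass, but did without transgenic replicate 1, at 0.41 (limma adjusted p = 0.0233) and 0.40 (limma adjusted p = 0.00832). In that setting 4 of the 7 genes passed as higher, against 14% of all genes. The list's median was 0.31, and 2 of its members lay below 0, neither passing. These were the goblet cell product Clca1 at -0.75 and Stat6, which transmits IL-4 and IL-13 signals, at -0.43. Both were lowest on transgenic replicate 1. Clca1 had 10.50 on that array and 12.40 and 12.33 on transgenic replicates 2 and 3, against a control mean of 12.50. In the same order Stat6 had 9.2023, 9.9955 and 10.0134, against a control mean of 10.1668. Retnlb, a goblet cell product that IL-13 induces, had the largest difference of the list, 1.49, and did not pass (limma adjusted p = 0.541). It had 9.21 on transgenic replicate 1 and 4.60 to 4.82 on the other 5 arrays, and was named here after its values were seen. Of 8 markers of group 2 innate lymphoid cells and their cytokines 1 passed, Gata3, which rose by 0.90 (SE 0.116, limma adjusted p = 0.00731). Il4 had the next smallest p, with a difference of 0.23 (limma adjusted p = 0.21), and Il13 had -0.19. Neither passed. The list's median was -0.02.

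The spread among the controls was then set beside the markers of the other cells that the preparation could hold. Control replicate 2 minus control replicate 3 had a median of 0.95 over the tuft cell markers, 0.69 over the eicosanoid list, 0.74 over the haematopoietic-type list, 0.55 over the taste-like list and 0.05 over all genes. It was lower over the other tuft cell lists, at 0.31 for the transcription factors and -0.0038 for the cytoskeleton list, where 3 of 7 genes had control replicate 2 above control replicate 3. In the 14 lists of the IL-25 circuit and of other cells, the median ran from -0.26 in Paneth cell markers to 0.18 in neuron and glia markers. Mast cell, B cell, macrophage and T cell lists lay between -0.05 and 0.02. In each of the 14 lists control replicate 2 exceeded control replicate 3 by at least 1 unit for 0 genes. Single genes of these lists still differed, also in the opposite direction. Jchain, of the B and plasma cell list, had -1.16, and the Paneth cell markers ran from -0.61 to 0.63. The goblet cell list had a median of -0.02 and the enterocyte list -0.11.

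**Figure D5:**
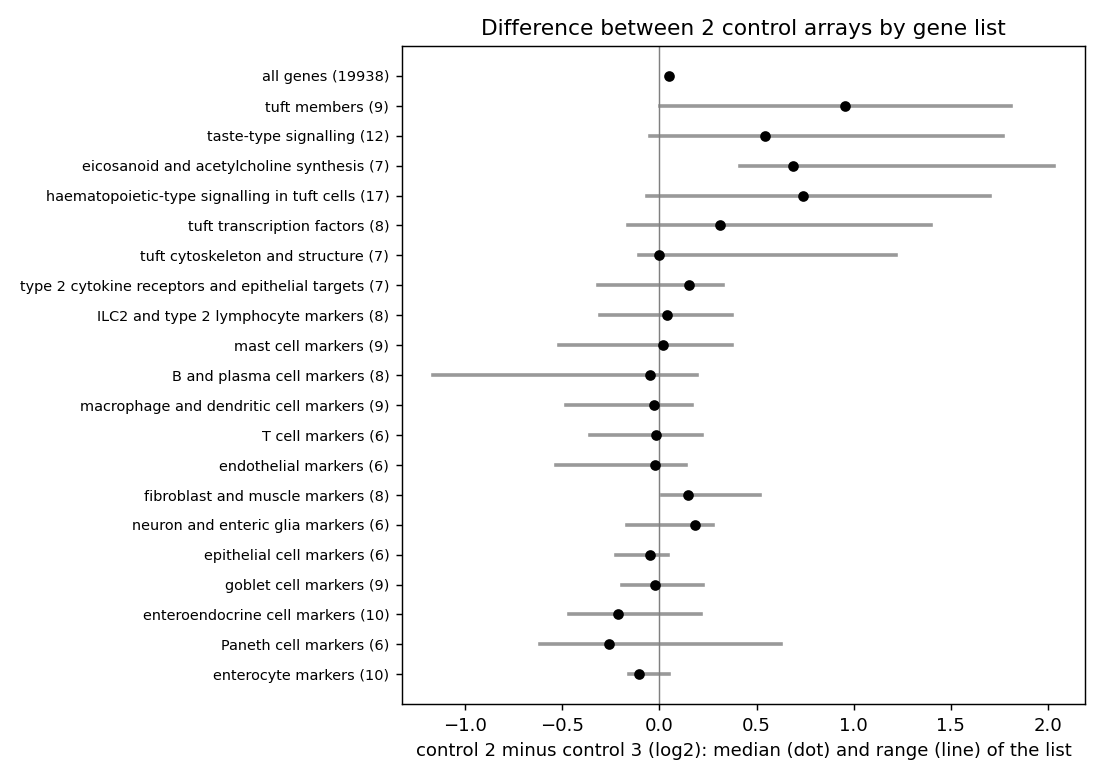
Control replicate 2 minus control replicate 3 in log2 units, with the median (dot) and the range (line) over each list, the number of measured genes in parentheses, and the median of all genes on top. The tuft cell markers have a median of 0.95, the tuft cytoskeleton list lies at -0.0038, and the medians of the lists of other cell types run from -0.26 to 0.18.

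Between the groups the order of the lists differed. Goblet and enteroendocrine markers had medians of -0.61 and -0.61, with 4 of 9 and 4 of 10 passing as lower, against 5.84% of all genes. The tuft cell markers had -0.27 with 0 of 9 passing. The absence of calls was not particular to them. Paneth cell markers had a median of -0.46 with 0 of 6 passing, and enterocyte markers -0.95 with 0 of 10 passing. Whether tuft cell markers differ from these lineages was not tested. The control range had a median of 0.12 over the goblet markers and 0.30 over the enteroendocrine markers, against 0.95 over the tuft cell markers.

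Because the markers shared an order among the controls, their promoters were searched for the octamer ATGCAAAT (reverse complement ATTTGCAT), the site class of POU factors such as Pou2f3. Windows of 250 bases before to 50 after the start site came from RefSeq (GRCm38.p6), where 8 of the 10 genes had 9 windows, and Pou2f3 and Il25 were not listed. The octamer was in 0 of the 9 windows and in 570 of all 32851 windows (1.74%). It was in 5 of 58 windows of the other tuft cell genes (8.62%), in Hpgds, Itpr3, Ly6g6d, Rgs21 and Sucnr1. A shorter form, TGCAAAT, which is part of the octamer, was also in 0 of the 9 windows and in 4.02% of all, while 7 of the 58 windows of the other tuft cell genes held it (12.1%). A match to these letters is not a measured binding site. Over the 5 octamer genes, control replicate 2 minus control replicate 3 ran from 0.09 (Rgs21) to 1.59 (Sucnr1). Sucnr1 was picked from them to be shown after its values were seen. A link between the octamer and the spread among the controls was not tested. The 250 bases before the start are shown for 2 markers with a wide control range, Trpm5 (chr7:143094643-143094892, minus strand) and Sh2d6 (chr6:72520037-72520286, minus strand), and for Sucnr1 (chr3:60081619-60081868, plus strand), which varied with them among the controls and holds the octamer, in capitals, starting 48 bases before the start.
Trpm5: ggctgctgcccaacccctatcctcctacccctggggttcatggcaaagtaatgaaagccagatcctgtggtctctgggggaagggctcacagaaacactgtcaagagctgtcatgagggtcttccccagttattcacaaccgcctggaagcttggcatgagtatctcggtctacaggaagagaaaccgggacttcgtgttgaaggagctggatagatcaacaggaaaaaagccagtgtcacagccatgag
Sh2d6: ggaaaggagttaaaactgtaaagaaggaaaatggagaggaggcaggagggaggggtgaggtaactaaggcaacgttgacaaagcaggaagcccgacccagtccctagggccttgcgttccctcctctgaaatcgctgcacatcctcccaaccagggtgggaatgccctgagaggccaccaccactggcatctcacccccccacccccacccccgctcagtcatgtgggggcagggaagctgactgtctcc
Sucnr1: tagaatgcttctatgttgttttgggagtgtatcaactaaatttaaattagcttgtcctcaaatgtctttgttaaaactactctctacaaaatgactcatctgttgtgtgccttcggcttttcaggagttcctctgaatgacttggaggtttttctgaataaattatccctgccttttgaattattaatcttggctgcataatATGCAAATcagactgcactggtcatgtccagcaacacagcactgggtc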

How the data were processed

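The authors deposited log2 signals per probe set, and the submitters' processing notes name RMA and Partek 6.5; the sources used here give no settings. RMA gives arrays nearly equal distributions, so a change in total RNA cannot show, and compresses low signals. Of 35399 rows 21789 had 1 gene symbol in the platform annotation, 1621 several and 11989 none; rows with 1 symbol were used, the highest mean per gene, giving 19938 genes, unfiltered for signal. Samples were grouped by their titles, and the series text calls them animals.

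Transgenic minus control was fitted in R 4.3.3 by lmFit and eBayes of limma 3.58.1, p was adjusted by Benjamini-Hochberg across the 19938 genes, and the fit was checked on simulated data. Array number, 3 per group, limits the precision. Lists are described by counts and medians, with no list test. Besides the 9 markers and Msi1 and Msi2, up to 4 genes per list with the smallest p were named; Rgs13, Sucnr1, Gnat3, Alox5ap, Alox5, Bmx, Siglecf, Spib and Retnlb were named or described after their values were seen. The members and lists were chosen with earlier results of these data known. Alternatives were other scalings, a filter on dim genes, replicate blocks, other moderation, array weights, row means, all rows, an adjusted p under 0.1 and leaving out each array.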

Additional observations from a re-analysis of the deposited data

How the results depend on the processing

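Of 135 marker differences under the alternatives, 126 kept their direction and side of the threshold, 5 newly passed and 4 changed sign without passing. The sign changes all came without control replicate 2: with 1 array left out, Dclk1 ran from -0.78 to 0.062, Trpm5 from -0.71 to 0.084, Pou2f3 from -0.44 to 0.034 and Avil from -0.48 to 0.19. So did Rgs13 (-0.79 to 0.10), Siglecf (-0.68 to 0.076) and Spib (-0.58 to 0.12). Retnlb ran from -0.0064 without transgenic replicate 1 to 2.30. The cause of these changes was not tested. Markers passing numbered 0 as reported, 1 with array weights, 3 with the description numbers as a replicate block on 4 arrays, and 0 to 1 with 1 array left out. Newly passing were Plcg2 at -0.87 with that block, -0.84 with array weights and -0.90 without transgenic replicate 1 (-0.53 without transgenic replicate 3), and Dclk1 at -0.54 and Sh2d6 at -0.45 with that block. Over all genes 2368 passed, 733 with the title numbers as a replicate block, 4019 with the description numbers, 5770 with array weights, and 683 to 5700 with 1 array left out.

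For the other lists, the block on description numbers passed 4 of 12 taste-like genes, 3 as lower and 1 as higher. It passed 4 of 7 eicosanoid, 7 of 17 haematopoietic-type and 1 of 7 cytoskeleton genes, all as lower. Array weights passed 4, 2, 4 and 3 genes of these lists, all as lower. Over all 19938 genes these settings passed 4019 and 5770 in either direction. An adjusted p under 0.1 passed 3, 1 and 2 genes of the first 3 lists, against 3409 of all genes. The block on title numbers passed 0 haematopoietic-type genes and 1 transcription factor, against 733 of all genes. With 1 array left out, the counts ran from 0 to 4 in the taste-like list, 0 to 2 in the eicosanoid list and 0 to 4 in the haematopoietic-type list. They ran from 1 to 3 in the transcription factors and 0 to 4 in the cytoskeleton list, against 683 to 5700 of all genes. Deviations of same-numbered arrays from their group means correlated at -0.07, -0.17 and -0.12, and the block on title numbers passed 0 markers. These values show no pairing by title number but cannot exclude one. Transgenic replicate 1 stood apart and weighs on the deviations of the whole transgenic group. The shorter motif was in 0 of the 9 marker windows, as was the octamer. With 3 arrays per group, the 95% intervals of Dclk1, Trpm5 and Sh2d6 reach down to -1.42, -1.21 and -1.81, so falls within those bounds could not be told from no difference.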

Other observations

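Genes outside the tuft cell lists also differed widely between control replicates 2 and 3, and they were picked after their values were seen. Pla2g4c, a cytosolic phospholipase A2, had 11.54, 12.49 and 6.63 on the controls and 7.61, 10.27 and 10.23 on the transgenic arrays, the widest gap of all genes between those controls at 5.86. The peroxide-producing oxidase Duox2 had 10.81, 11.17 and 8.17 on the controls, and its maturation factor Duoxa2 had 11.15, 11.57 and 8.27. The gasdermins Gsdmc2 and Gsdmc4 differed by 2.50 and 2.47 between these controls, the malic enzyme Me1 by 2.37 and the potassium channel Kcnj13 by 2.33. Unlike the tuft cell markers, Gsdmc4 (-3.24, limma adjusted p = 0.0245) and Kcnj13 (-3.26, limma adjusted p = 0.0417) also passed as lower between the groups. Gsdmc2 (-2.32, limma adjusted p = 0.106) and the others of these genes did not pass. These 7 genes had the 7 largest values of control replicate 2 minus control replicate 3. That control replicate 3 was their lowest control was therefore largely set by how they were picked. It says nothing about an order shared with the tuft cell markers, and with 3 control arrays no test of such an order was possible.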
